A study of Mus musculus with 12 samples.

Results

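The H3K9me3 signal at the Six3 homeobox locus of mouse chromosome 17 differed between Tex19.1+/- and Tex19.1-/- embryonic stem cells at a single region inside Six3os1, a long noncoding RNA gene transcribed from the strand opposite to Six3. The authors' deposited table lists it at a log2 fold change of 1.19, a 2.29-fold difference, and no other region of the window or of the 1 Mb on either side was called. Among all regions 0.281% were called, so most stretches of this size would hold no call. The locus was defined by coordinates, as the listed regions that overlap 85.55 to 85.70 Mb of chromosome 17 in mm10, and it was selected on the deposited fold change and FDR (adjusted p-value) of this region. Those values are therefore given as a description, without a test. The window held 3 of the 68291 regions in the table, and the flanks of 1 Mb on either side held 64.

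The cells were derived from the E14Tg2a line of 129/Ola background, at passages 12 to 20, and were heterozygous or knockout for Tex19.1, a mammal-specific gene that is active in germ cells and pluripotent cells and restrains retrotransposons there. They were grown with serum and leukaemia inhibitory factor. Immunoprecipitated and input DNA were sequenced in 3 libraries each per genotype, 12 in all, and the labels do not say whether the lines are single clones or whether libraries came from separate cultures. The genotype field goes against the title in 6 of the 12 libraries, 3 of them immunoprecipitated, so group membership rests on the titles. The table holds 1 comparison between the genotypes with no value for a single library, and neither the reference genotype nor the use of the input libraries is given in the sources used here. Fold changes therefore carry the sign as deposited, and which genotype had more H3K9me3 is not stated. Errors are derived from the authors' p-values, either that of the region itself or those of regions of like signal.

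Trimethylation of lysine 9 on histone H3 marks heterochromatin, the compact chromatin that silences repeats, imprinted alleles and some gene clusters. Six3 and Six2 encode homeodomain transcription factors. Six3 is required for the anterior neural plate, forebrain and eye, and Six2 maintains nephron progenitors in the kidney. Six3os1 (also called Rncr1) is expressed with Six3 in the developing eye and forebrain. Both Six3 and Six3os1 belong to the developmental genes that embryonic stem cells largely keep silent, a class better known for Polycomb marks than for H3K9me3.

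Start sites are the first listed for each gene in the RefSeq promoter table (GRCm38.p6, the assembly that mm10 names). By these, Six3os1 and Six3 are arranged head to head, 2438 bp apart. The RefSeq body of Six3 begins further upstream, inside the Six3os1 body, so the gene bodies overlap. Six3 is on the plus strand, so its annotated upstream end is that body start, which lay 314 bp from the called region. Distances to a Six3 start site and the promoter shown hold for the listed downstream site alone. The sequence at the upstream end was not analysed here. Both start regions are shown because no H3K9me3 region overlapped either of them. The sequences run 5′ to 3′ on the strand of the gene, from 250 bases before to 50 bases after the start, with every CpG in capitals. The first lies at chr17:85618347-85618646 (minus strand) and the second at chr17:85620584-85620883 (plus strand).
Six3os1: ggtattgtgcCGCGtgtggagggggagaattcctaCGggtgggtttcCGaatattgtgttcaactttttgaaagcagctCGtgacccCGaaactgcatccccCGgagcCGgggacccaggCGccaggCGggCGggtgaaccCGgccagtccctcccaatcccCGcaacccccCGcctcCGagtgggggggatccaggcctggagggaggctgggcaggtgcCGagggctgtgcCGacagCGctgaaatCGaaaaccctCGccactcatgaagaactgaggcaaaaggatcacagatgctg
Six3: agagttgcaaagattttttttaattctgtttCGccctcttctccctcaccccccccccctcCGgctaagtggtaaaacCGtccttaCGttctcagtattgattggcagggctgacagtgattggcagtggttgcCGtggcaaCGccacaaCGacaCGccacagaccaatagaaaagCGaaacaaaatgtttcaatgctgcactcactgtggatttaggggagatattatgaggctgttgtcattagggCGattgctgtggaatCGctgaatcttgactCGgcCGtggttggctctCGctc

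The dinucleotide CG (the same on both strands) was counted in each promoter. The Six3os1 promoter held 20 and the Six3 promoter 14. Of the 32851 promoters in the table, 26.5% held at least 20 and 36.3% at least 14, with a median of 7. The promoter of Six2, the kidney factor gene of the window, held 37, a count reached by 5.6% of promoters. H3K9me3 regions overlapped 2.73% of all promoters. The share was 1.2% of the 14281 promoters with at least 10 CpG and 3.91% of the 18570 with fewer, so a CpG-rich start region with no listed H3K9me3, as at Six3os1 and Six3, was the common case.

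The region in Six3os1 (chromosome 17, 85611038 to 85613294 as the table gives it) lay within the gene body (85601932 to 85618396), downstream of the start site. It covered 13.7% of the body. Its nearer end was 5102 bp from the Six3os1 start site and 7540 bp from the Six3 start site used here. RefSeq begins the Six3 body (85613608 to 85626191) 7226 bp before that start site, so the region ended 314 bp short of the annotated Six3 body and overlapped no part of it. Exons and introns were not analysed here. The authors' deposited table gives this region an average of 26.8 CPM (log2 CPM 4.75), a p-value of 4.73e-10 and an FDR of 1.54e-06. The derived standard error was 0.19, which puts the log2 fold change between 0.82 and 1.57 (95% interval) and the fold difference between 1.76 and 2.96. This interval covers only what the authors' test counted as error, which may leave out variation between cultures.

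The other members of the window were weaker and were not called. The region at 85566308 to 85567290, with no gene within 5 kb, stands in the authors' deposited table with 10.0 CPM and 0.26 (95% interval -0.41 to 0.93 from a derived standard error of 0.34, FDR 1). The region at 85593565 to 85593859, also with no gene within 5 kb, stands there with 3.38 CPM and 0.03 (95% interval -1.31 to 1.38 from a derived standard error of 0.69, FDR 1). All 3 values were positive as deposited, and the intervals of both weak regions included 0. The errors of both weak regions are medians at like log2 CPM, so these intervals do not rest on their own p-values. After subtraction of the median at like signal, the second weak region had -0.05. Typical precision at like signal differed strongly between the weak regions. Among regions with a log2 CPM within 0.5 of the first weak region, 10 of 18857 were called and the smallest called change was 1.24, while around the second 0 of 12796 were called, with 279 at an unadjusted p below 0.05. The interval of the first weak region ended below 1.19, and that of the second included it. The 1.19 in Six3os1 was below the smallest change called at the signal of the first, and no change was called at that of the second. The lack of a call at either therefore does not show a change smaller than that in Six3os1. Of the window's 3 regions 1 was called, against 0.281% of all regions in either direction and 0.192% in the positive direction, and nothing is read from that share because the window was chosen by this call.

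**Figure D1:**
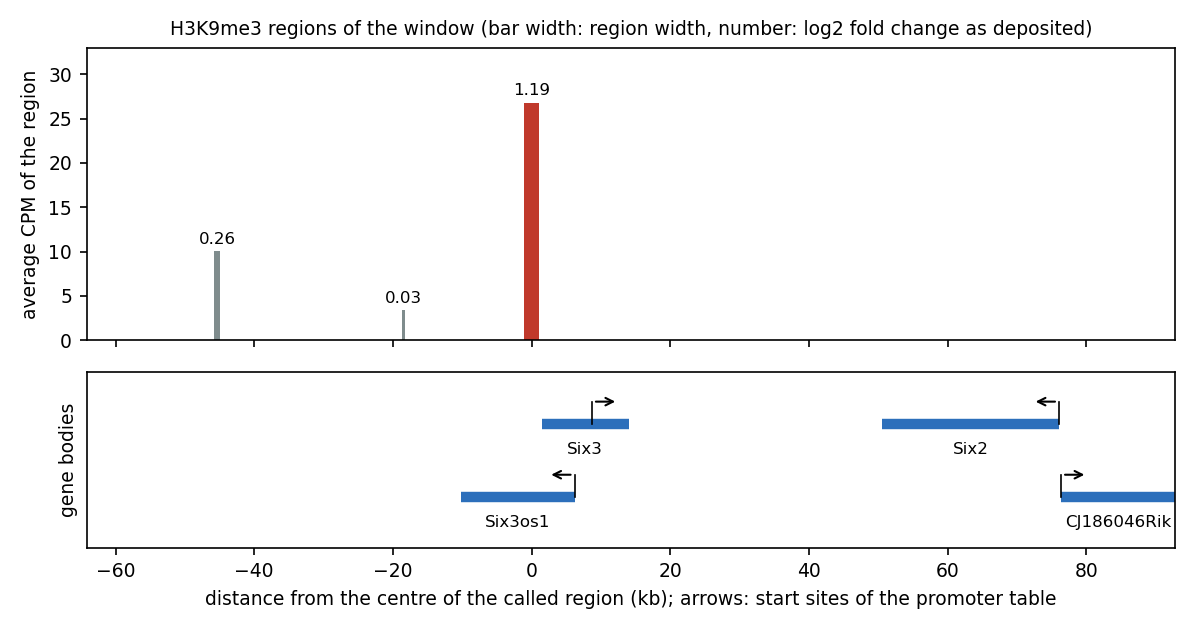
Average CPM (vertical axis) of the 3 regions of the window against distance in kb from the centre of the called region; bar width is region width, numbers are log2 fold changes as deposited, blue bars are gene bodies and arrows are start sites of the promoter table. The red bar, at 26.8 CPM, is the called region inside Six3os1, and no region lies over Six3 or Six2.

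The window held 20.0 regions per Mb, against 31.0 along chromosome 17, and 293 of 613 windows of the same length on that chromosome held 3 or fewer. Most of the H3K9me3 measured at the locus lay in the Six3os1 region. It held 66.7% of the 40.2 CPM summed over the window, and the 3 regions covered 3532 bp, or 2.35% of 150 kb. Its width of 2256 bp was above that of 87.8% of all regions and its CPM above that of 86.2%. Per kilobase its signal was ordinary, with 11.9 CPM per kb, above 59.3% of regions. The weak neighbours had 10.2 and 11.5 CPM per kb, so the regions of the window differed in width far more than in density. The distance to the next region was 17179 bp on the side of the weaker neighbour and 139823 bp on the side of Six3 and Six2. The nearer of these distances exceeded that of 76.9% of regions (median 3796 bp) and the farther exceeded that of 88.9% (median 29702 bp). Of the 189 called regions with a neighbour on both sides, 29 had their nearer neighbour as far away or farther, and the median among calls was 2176 bp. The long interval beyond Six3 holds Six2 (85662736 to 85688254), whose body lay 49442 bp from the Six3os1 region and whose start site was 64863 bp from the nearest region.

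The flanks held no further call. None of the 64 regions was called by the authors' FDR, against 0.281% of all regions. Of 24830 regions with a log2 CPM within 0.5 of the flank median, 4 were called. At such shares 64 regions mostly hold no call, so nothing is read from its absence. Among the 64 regions, 1 had an unadjusted p below 0.05. This is 1.56%, against 2.69% of the 24830 regions of like log2 CPM and 4.74% of all regions. Their median log2 fold change was 0.07, with 38 positive and 26 negative values, against -0.02 on chromosome 17 and -0.0058 over all regions. Regions of the whole table with a log2 CPM within 0.5 of the flank median had a median of 0.05, and the 21 flank regions with a log2 CPM of 3 or more had 0.03. The left flank had 21 regions with a median of 0.01 and the right flank 43 with a median of 0.09. Within 250 kb of the centre of the Six3os1 region there were 14 flank regions, from -0.61 to 0.38. The regions just outside the window, on either side, had -0.61 (85507264 to 85507448) and -0.29 (85753117 to 85753913) according to the authors' deposited table, with derived standard errors of 0.69 and 0.34. Of the flank regions, 8 had a log2 CPM within 0.5 of that of the Six3os1 region. Their median derived standard error was 0.19. Most of these errors are the value typical of that log2 CPM, so they do not show the precision of the regions themselves. The log2 fold changes of these 8 regions ran from -0.21 to 0.20, none near 1.19. The other called regions of chromosome 17 were 7 in number, and the nearest lay 58.3 Mb away. Of the 8 calls on that chromosome 4 were positive, and the Six3os1 region had the largest absolute fold change among them.

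**Figure D2:**
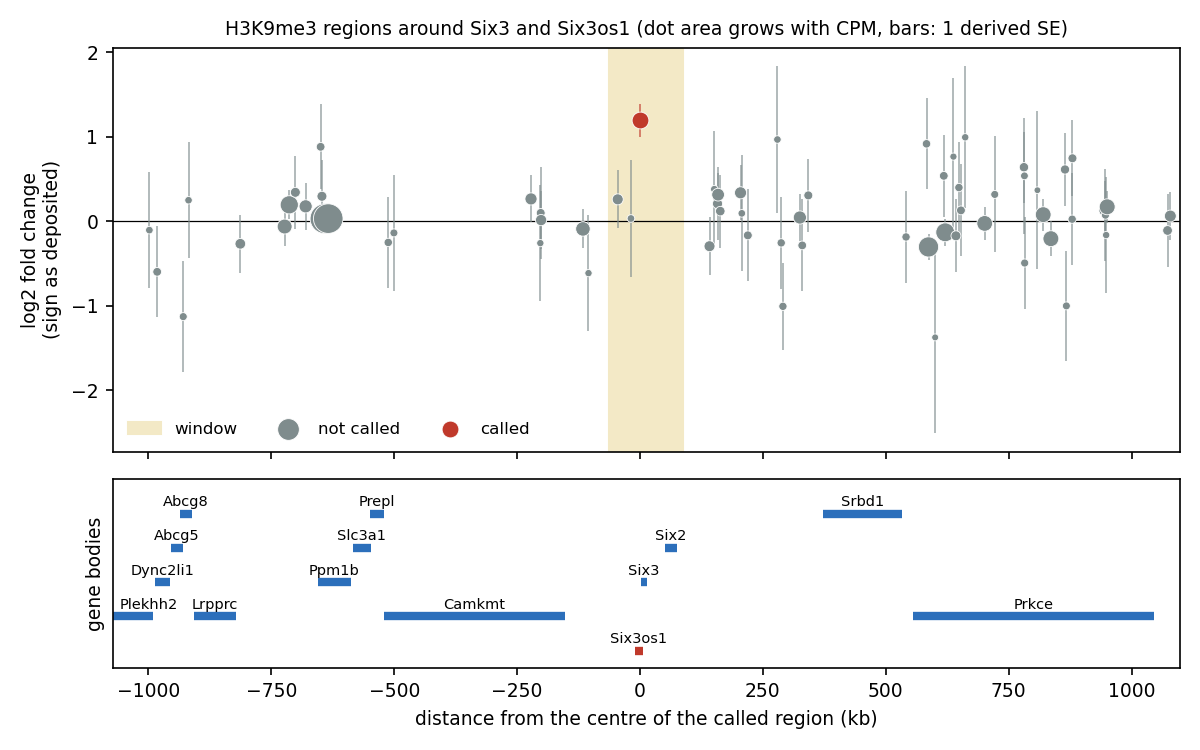
Log2 fold change as deposited (vertical axis) of the 67 regions of the window and its flanks against distance in kb from the centre of the called region; dot area grows with CPM, bars are 1 derived standard error, shading is the window and the lower panel shows protein-coding gene bodies and Six3os1. The red dot at 1.19 is the called region, and the large dots, which are the best measured, lie close to 0.

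Of the 13 protein-coding genes in the window and flanks, 7 had a region in the body and 6 had none, among them Six3, Six2 and Srbd1. Prkce, a protein kinase C gene, had 26 regions, 17 positive and 9 negative, with a median of 0.13. Its strongest (86197707 to 86200259, 39.9 CPM) had -0.30 and was the flank region with an unadjusted p below 0.05 (p = 0.0415, FDR 1, in the authors' deposited table). Camkmt, which encodes the methyltransferase of calmodulin, had 6 regions between -0.26 and 0.26. Ppm1b, a protein phosphatase gene, held the strongest signal of the flanks, at 90.7 CPM (84968563 to 84974338), with a log2 fold change of 0.03 and a derived standard error of 0.09. The 5 largest absolute values of the flanks were all at weak regions, of 2.28 to 4.43 CPM. They were -1.37, -1.0 and 0.99 in Prkce, -1.13 where the sterol transporter genes Abcg5 and Abcg8 overlap, and -1.01 in the noncoding RNA gene Gm30117. Their derived standard errors ran from 0.51 to 1.14 and each had an FDR of 1.

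Set against regions of like signal and width, the Six3os1 value was the highest. There were 7286 regions with a log2 CPM within 0.5 and a width within a factor of 1.5. Their median log2 fold change was -0.03 with a standard deviation of 0.21, and their 99th percentile was 0.59. Of these, 33 were called, 27 positive and 6 negative, and the smallest called change was 0.61. The next highest value was 0.90, at the gene Gm5675 on chromosome 16 (78116874 to 78118648, FDR 0.0236 by the authors' deposited table, derived standard error 0.22). Negative values reached further, to -2.71 in H13 on chromosome 2 (152686848 to 152689238), a gene that hosts an imprinted retrogene. Without the limit on width and with log2 CPM within 0.25, the Six3os1 region was again the highest, of 4472, but a broader region on chromosome 16 (13083477 to 13087127) was close behind at 1.19 (derived standard error 0.19). These ranks describe a region that was chosen for its size of change. They also depend on the range of signal. A called region near Gm36897 on chromosome 6, at 1.74, had a like width (1651 bp). Its log2 CPM of 4.18 lay just below the wider range.

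**Figure D3:**
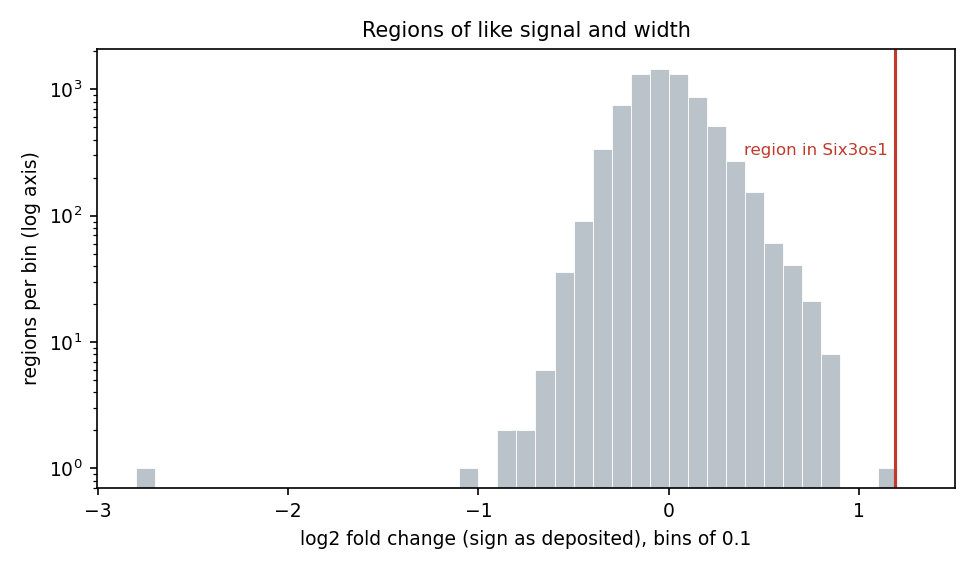
Number of regions per bin of 0.1 (vertical, log axis) against log2 fold change as deposited for the 7286 regions of like signal and width. The red line marks the region in Six3os1 at 1.19, which lies beyond all others on the positive side, and the bar farthest left is the region in H13 at -2.71.

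The called regions nearest to it in fold change, CPM and width together were all smaller in fold change. They lay in F630206G17Rik and Gm12163 on chromosome 11 (45811119 to 45813463) at 0.88, and in Myh13, a myosin heavy chain gene on chromosome 11 (67359105 to 67361638), at 0.82. The other 3 had no gene within 5 kb, at 0.83 (18010608 to 18012800) and 0.85 (25946623 to 25948997) on chromosome 16 and 0.81 on chromosome 12 (69440476 to 69442906). Of these 5 regions 4 lie on chromosomes 11 and 16, whose median log2 fold changes over all their regions were 0.28 and 0.32 against -0.02 on chromosome 17. Outside chromosomes 11 and 16 there were 57 positive calls, among which the Six3os1 region ranked 4th by fold change. The regions above it there were at 1.74 near Gm36897 on chromosome 6, 1.51 in Fat1 on chromosome 8 and 1.46 on chromosome 10. All of them were weaker in signal, at 18.1, 7.60 and 8.68 CPM. By p-value the Six3os1 region ranked 21st of all regions.

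**Figure D4:**
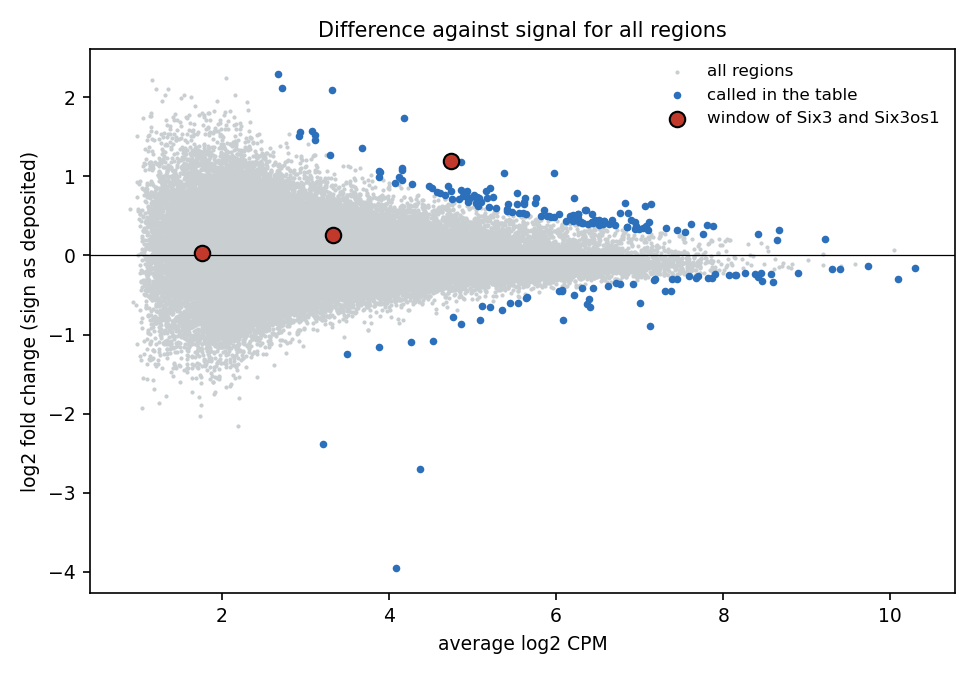
Log2 fold change as deposited (vertical axis) against average log2 CPM for all 68291 regions (grey), with called regions in blue and the 3 regions of the window in red. The called region in Six3os1, at a log2 CPM of 4.75, lies above the grey cloud, and the 2 weak regions of the window lie inside it.

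Regions in the body of a long noncoding RNA gene numbered 6242, with a median of 0.02, and 24 were called positive and 6 negative. These calls are 0.481% of such regions, against 0.281% of all regions. Outside chromosomes 11 and 16, 11 of these were positive calls, among the 57 positive calls of all regions there. The 11 include the Six3os1 region, by which the locus was chosen. The number of such regions outside these chromosomes was not counted, so nothing is read from the shares. The Six3os1 region had the largest fold change of the 11, followed by 1.04 and 0.95 where Gm52691 overlaps Noc2l on chromosome 4 and 0.86 in Gm40562 on chromosome 12. RNA genes named for lying opposite another gene, by a symbol ending in os, were taken as the nearest class to Six3os1. Of 212 such genes 69 had a region within 5 kb, 125 regions in all, with 60 positive and 65 negative values and a median of -0.0067. The Six3os1 region, by which the locus was chosen, was the single call among them, 0.80% of these regions against 0.281% of all. Of the other 124 regions 0 were called by the authors' FDR, and 4 had an unadjusted p below 0.05. Such a p was found in 3.24% of regions with a log2 CPM within 0.5 of this list's median and in 4.74% of all regions. The next smallest p belonged to Tspan2os, with 0.45 and an FDR of 0.0861 by the authors' deposited table (derived standard error 0.13). The 18 other regions at least as strong as that in Six3os1 ran from -0.21 to 0.45. The closest value at a weak region was 1.16 at Gad1os (5.49 CPM, derived standard error 0.50, FDR 0.810).

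Six2 had no region within 5 kb, so the table holds no H3K9me3 value for it, and the only region within 5 kb of Six3 is the one in Six3os1. EYA proteins are co-activators that SIX3-related homeodomain proteins bind, and DACH proteins act with them. Over all regions 0.281% were called and 4.74% had an unadjusted p below 0.05. Lists as small as those below thus mostly hold no call, and nothing is read from that. Of 6 EYA and DACH genes, 4 had 13 regions, none called and none with an unadjusted p below 0.05, with a median of 0.20. Eya1 had 8 of these, from -0.32 to 0.67, and its highest had 7.74 CPM and a derived standard error of 0.39. Dach1 had 1 region at 0.83 (derived standard error 0.51). Eya2 held the strongest, at 31.6 CPM, with -0.06 (derived standard error 0.19). At Six3 partners and targets, 3 of 10 genes had a region. These were Tle1, a Groucho co-repressor (-0.07), Wnt8b, a Wnt ligand of the forebrain that Six3 represses (0.32), and the cell cycle inhibitor gene Cdkn1a (0.06). None was called and none had an unadjusted p below 0.05. Gmnn, whose product geminin binds SIX3, had no region within 5 kb.

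Of 20 eye field and forebrain transcription factor genes, 2 had a region within 5 kb, against 37 of 180 homeobox genes. The share over all genes was not computed, so nothing is read from this. Nkx2-1, a factor of the ventral forebrain, had a region of 63.4 CPM over its promoter, with -0.02 and a derived standard error of 0.13. Over the list of 20 genes there were 3 regions, none called and none with an unadjusted p below 0.05 (0.281% and 4.74% over all regions). Rax, Pax6, Lhx2, Otx2 and Hesx1 had no region within 5 kb.

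Over a list of 182 homeobox genes, of which 180 were in the reference, 37 had a region, 91 regions in all. The Six3 region, by which the locus was chosen, was the single call, 1.10% of these regions against 0.281% of all. It lies outside the Six3 body, so with gene bodies alone the list had 0 calls. There were 59 positive and 32 negative values with a median of 0.10, or 0.10 without the Six3 region, against -0.0058 over all regions and 0.04 over the 25043 regions with a log2 CPM within 0.5 of the list's median, of which 53.7% were positive. Of the 91 homeobox regions 3 had an unadjusted p below 0.05, the Six3 region among them. The share was 2.72% in the 25043 regions of like log2 CPM and 4.74% over all regions, so nothing is read from this count. Signal at these genes was low, with a median of 5.66 CPM against 8.44 over all regions. The 8 other homeobox regions at least as strong as that at Six3 ran from -0.20 to 0.13. The nearest in fold change was a weak region in Zfhx3, at 1.17 with 3.15 CPM and a derived standard error of 0.85. The 2 other regions with an unadjusted p below 0.05 were at Pitx1 (-0.60, FDR 0.484) and Zeb2 (1.07, FDR 0.804) by the authors' deposited table, with derived standard errors of 0.21 and 0.45. H3K9me3 regions overlapped 2 of 147 homeobox promoters (1.36%), those of Hoxd12 and Nkx2-1, each at -0.02.

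**Figure D5:**
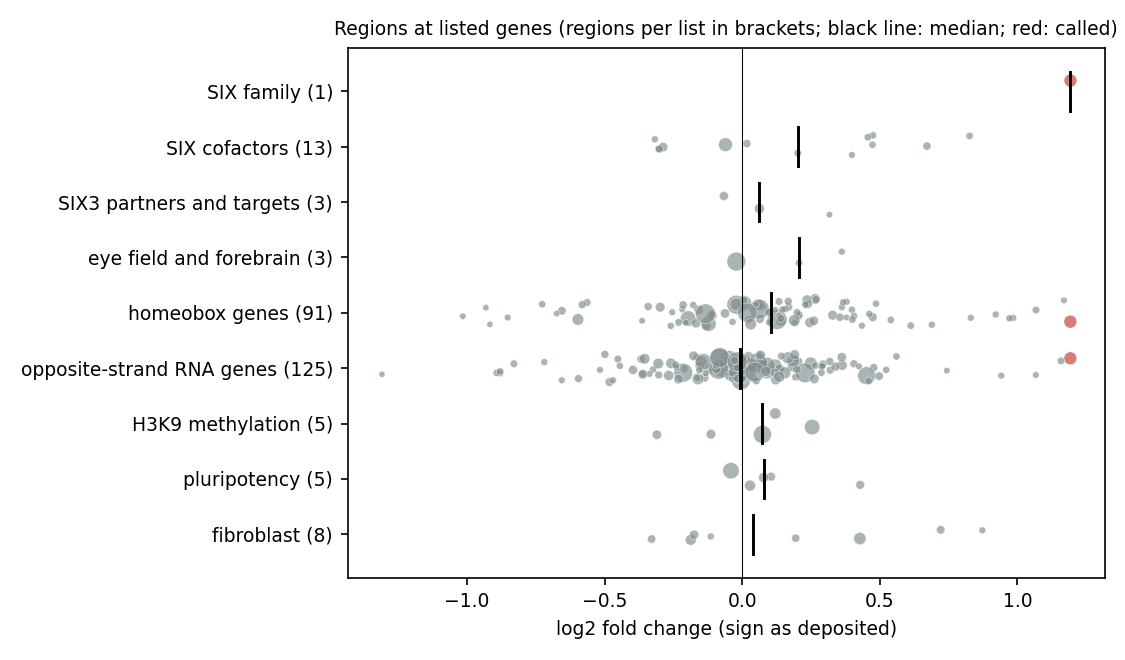
Log2 fold change as deposited (horizontal axis) of each region within 5 kb of the genes of 9 lists, with the number of regions in brackets; dot area grows with CPM, black lines are list medians and called regions are red. The only called region in these lists is the one at Six3 and Six3os1, which 3 lists share.

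The cell type could not be checked with this mark, since active marker genes mostly lack it. Of 12 pluripotency genes 3 had a region, Nanog, Esrrb and Dppa3, with 5 regions from -0.04 to 0.43, the highest at Dppa3. None was called and none had an unadjusted p below 0.05. Over all regions these shares were 0.281% and 4.74%, so lists of this size mostly hold no call. Of 12 fibroblast genes 6 had a region, with 8 regions from -0.33 to 0.87 and no call, and 2 of these, at Col1a1 and Thy1, had an unadjusted p below 0.05 (0.43 and 0.72). Col1a1 lies on chromosome 11, where the median was 0.28 and 15.6% of regions had such a p. Thy1 lies on chromosome 9. Factors of H3K9 methylation had 5 regions at 3 of 15 genes, Atf7ip, Cbx3 and Ehmt1, from -0.31 to 0.25, the last at Atf7ip (derived standard error 0.15), none called and none with an unadjusted p below 0.05.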

How the data were processed

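H3K9me3 ChIP-seq was deposited as a table of 1 comparison, holding for each region the log2 fold change, the log2 CPM, the p-value and the FDR, per the file headers. Tools listed in the submitters' processing notes, with no role or order, are HOMER 4.8, edgeR without a version, Bowtie2 2.2.6 and bedtools 2.25.0, and the build is mm10. Depth per library and replicate spread were not analysed here (0 columns of single libraries), so no count test was run. Where the normal deviate of the deposited 2-sided p-value was at least 1, the standard error is the absolute log2 fold change divided by it; elsewhere the median error of the region's log2 CPM bin (0.5 wide) was used. Both were tested on simulated read sums with counting error alone and p-values from the normal deviate. This checks the arithmetic, not how well the errors match the authors' test or the spread between libraries. The deposited FDR differed from a Benjamini-Hochberg adjustment by at most 3.2e-05. A region is called at FDR below 0.05 and belongs to a gene when within 5 kb of its RefSeq body (GRCm38.p6). Lists are described by counts and medians, with no set test. Named were all window regions, the 5 largest flank changes, the 5 called regions nearest in fold change, CPM and width (Euclidean distance on log2 scales), and, per gene list, calls and the smallest p; any others were picked after seeing their values. The locus and lists were chosen with earlier results of these data known. Some members of the gene lists are not reported here by name. Width is end minus start. Python 3.11.15, pandas 2.3.3, scipy 1.17.1 and matplotlib 3.10.9 were used.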

Additional observations from a re-analysis of the deposited data

How the results depend on the processing

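The Six3os1 region was chosen on its fold change and FDR, so the alternatives describe the settings and are no support for the change. Its log2 fold change stayed positive and called under all 5 alternatives run. It was 1.22 with the median of like signal subtracted and 1.22 with that of chromosome 17, and the adjusted p ranged from 3.22e-07 to 3.23e-05 (Holm). The count of 1 call was also found at FDR below 0.01, with flanks of 0.5 and 2 Mb and for the gene bodies with 5 kb. With gene bodies alone the calls were 0 for Six3 and its family, 0 for homeobox genes and 0 over all lists but that of opposite-strand RNA genes, since the region lies outside the Six3 body and inside that of Six3os1. Within 10 kb, 1 call was found for Six3 partners and targets and 2 over the same lists combined, through a region near Gmnn on chromosome 13 (24767539 to 24774239, log2 fold change 0.42). The weak region at 85593565 had -0.05 in place of 0.03 after subtraction of like signal. No paired analysis was possible because the table has no values of single libraries, and for the same reason no library could be left out. Precision was lowest at the 2 weak regions of the window (10.0 and 3.38 CPM). Their derived standard errors of 0.34 and 0.69 were taken from regions of like signal, and depth per library was not analysed here.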
